A study of Homo sapiens with 16 samples.

Results

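In A549 cells given palbociclib, the addition of indisulam was read from 4 of the 16 libraries of the series, the duplicates labelled P+I against the duplicates labelled PD. A549 is a human lung cancer line grown in RPMI medium with serum. PD cells were given 2 µM palbociclib for 16 h and P+I cells were given the same palbociclib together with 3 µM indisulam for 16 h, so every library in the comparison carries palbociclib and the groups differ by indisulam. Untreated A549 cells (UT) and A549 cells given indisulam alone (IN, 3 µM, 16 h) supply the change with indisulam in the absence of palbociclib, and the same PD and P+I groups exist for the breast cancer line SUM159. The duplicates are technical by the submitters' description, so all p-values measure the spread between libraries of these samples and do not reach to other cultures.

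Palbociclib inhibits CDK4 and CDK6, the kinases that start the inactivation of the retinoblastoma protein RB in G1, and cells held there lower the E2F-driven genes of DNA replication and the later genes of mitosis. Indisulam is an aryl sulfonamide that attaches the splicing factor RBM39 to DCAF15, the substrate receptor of a CUL4 ubiquitin ligase with DDB1 and DDA1, after which RBM39 protein is degraded. RBM39 takes part in the choice of exons and of splice sites in many transcripts. Splicing factors commonly limit their own mRNA by alternative splicing coupled to nonsense-mediated decay. The study asked whether indisulam, described as an indirect inhibitor of CDK2, adds to palbociclib.

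Levels are given as CPM, the count of a gene scaled to a fixed library total after TMM adjustment, and changes as log2 of P+I over PD with their standard error (SE). Total gene counts were 20745038 and 34075588 in the PD libraries and 20955845 and 20862384 in the P+I libraries. A count of 3, the limit that a count of 0 allows, stands for 0.0880 to 0.145 CPM at these depths, by counting error only. Markers of an epithelial line were present, their 7 genes summing to 15050 and 15890 CPM in PD and to 12690 and 12430 CPM in P+I, with 5 of the 7 lower in P+I. Of the NRF2-driven genes for which A549 is known, 5 of 6 were lower in P+I, with sums of 24180 and 25430 CPM in PD and 18620 and 18940 CPM in P+I. In UT the sums were 11960 and 11690 CPM for the epithelial genes and 19190 and 18700 CPM for the NRF2-driven genes. Against UT, PD was higher for 5 of the 7 epithelial genes and for all 6 NRF2-driven genes. Defining markers of alveolar type II cells were nearly absent, 5 of 6 lying under 1 CPM in all 4 libraries, as were 5 of 6 fibroblast, 5 of 6 blood and 4 of 5 endothelial markers. CDKN2A, the gene of p16, which the study calls null in A549, was read at 2.15 and 1.60 CPM in PD and 1.66 and 1.83 CPM in P+I.

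Indisulam moved a large part of the transcriptome of palbociclib-treated cells, mostly by small amounts. At an adjusted p under 0.05 by edgeR's quasi-likelihood test, 51.5% of the 15744 genes tested were called, 23.7% higher and 27.8% lower in P+I. Among called genes the median size of the log2 change was 0.452. Calls of at least 2-fold made up 8.95% of the genes tested, 444 higher and 965 lower. At a mean of 5 CPM or more over the 4 libraries, 57 genes were at least 2-fold higher and 357 at least 2-fold lower, out of 10755 genes. Strong changes in well-measured genes were therefore mostly decreases, as the plot of change against level shows. With total-count scaling the calls split into 4120 higher and 4034 lower. Counts of gene list members for P+I against PD are to be read against 23.7% higher and 27.8% lower, and the shares for other comparisons stand beside them. In bulk libraries, fewer cells in a cell cycle phase and less RNA per cell cannot be told apart.

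**Figure D1:**
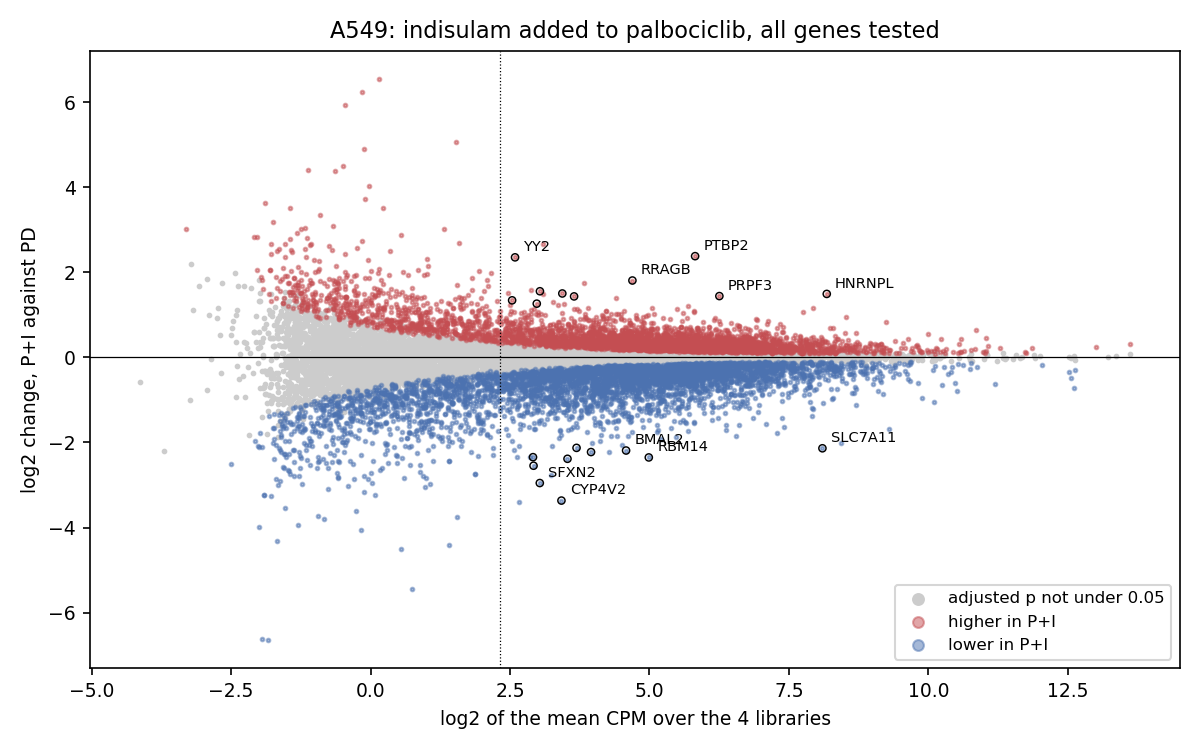
Log2 change of P+I against PD (vertical axis) against the log2 of the mean CPM over the 4 libraries (horizontal axis), 1 point for each of the 15744 A549 genes tested. Red and blue points passed an adjusted p of 0.05, the dotted line marks 5 CPM, circles mark the 10 largest protein-coding increases and decreases right of it, and more blue than red points lie beyond a change of 1 there (357 against 57 genes).

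The target itself came first. RBM39 (chr20:35701347-35742312, GRCh38) was at 154 and 146 CPM in PD and 336 and 336 CPM in P+I. Its mRNA rose by 1.17 on the log2 scale, with an SE of 0.0406 and an edgeR adjusted p of 4.81e-11. The groups did not overlap, and the change without palbociclib was 1.06, with no difference called between these (adjusted p of the difference 0.326). Its close relative RBM23, which the same ligase can also bind, was at 84.4 and 84.7 CPM in PD and 121 and 127 CPM in P+I, a log2 change of 0.55. The substrate receptor DCAF15 was read at 14.9 and 12.7 CPM in PD and 15.9 and 11.999 CPM in P+I, so its groups overlapped (log2 change 0.03, adjusted p 0.838). Of the other ligase parts, CUL4B rose by 0.43 and DDA1 by 0.24, DDB1 fell by 0.17, and CUL4A (-0.09, adjusted p 0.145) and RBX1 (0.12, adjusted p 0.116) did not pass. Altogether 4 of the 8 members of this list were higher and 1 was lower.

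The CDK-activating kinase phosphorylates CDK2 and the other cell cycle CDKs, and as a part of the general transcription factor TFIIH it also phosphorylates RNA polymerase II. Its cyclin gene CCNH (chr5:87318416-87412930) was at 25.2 and 24.3 CPM in PD and 10.1 and 10.8 CPM in P+I. The fall of 1.24 on the log2 scale (SE 0.0896, edgeR adjusted p 5.10e-08) was well beyond the spread of either pair. The catalytic partner CDK7 moved the other way, from 37.3 and 35.5 CPM in PD to 43.5 and 43.1 CPM in P+I, a log2 change of 0.25 (adjusted p 0.00186). The assembly factor MNAT1 was nearly level at 23.5 and 23.5 CPM in PD and 24.3 and 23.6 CPM in P+I (log2 change 0.03, adjusted p 0.752). Outside the kinase, the TFIIH core subunit GTF2H1 fell from 37.2 and 35.1 CPM in PD to 19.4 and 19.2 CPM in P+I (log2 change -0.90). The helicase gene ERCC2 fell by 0.46, while the other helicase gene ERCC3 (0.21) and the small subunit gene GTF2H5 (0.37) rose. In this list 3 of 9 tested members were higher and 3 were lower, with a median change of 0.03.

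Of the 26 cyclins, CDKs and their regulators tested, 13 were lower and 3 higher, with a median of -0.28 beside a median of -0.01 over all genes tested. CDK2 was at 40.7 and 39.3 CPM in PD and 30.5 and 33.1 CPM in P+I, a fall of 0.33 on the log2 scale with an adjusted p of 0.000280 in edgeR. CCNE1, an activating cyclin of CDK2, was at 22.4 and 23.3 CPM in PD and 15.1 and 16.5 CPM in P+I, a log2 change of -0.54. The related CCNE2 was already low, at 3.63 and 3.10 CPM in PD, and was at 1.20 and 0.703 CPM in P+I (log2 change -1.79 ± 0.239). CDK1, the kinase of mitotic entry, went from 43.8 and 46.3 CPM in PD to 23.3 and 23.9 CPM in P+I (log2 change -0.94). PKMYT1, which inhibits CDK1, was at 10.8 and 13.8 CPM in PD and 6.991 and 5.9997 CPM in P+I (log2 change -0.95). In contrast to its partner kinase, the mitotic cyclin gene CCNB2 was higher, at 37.5 and 35.0 CPM in PD and 57.4 and 52.3 CPM in P+I (log2 change 0.60). CDKN1A, the gene of the CDK inhibitor p21, rose from 29.2 and 32.8 CPM in PD to 52.3 and 49.5 CPM in P+I (log2 change 0.71 ± 0.0717, edgeR adjusted p 1.60e-06).

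Genes of DNA replication carried the most one-sided response of the lists. Of 58 tested, 44 were lower and 1, GINS1, was higher (0.20), a call lost without PD replicate 2 or without P+I replicate 1, with a median of -0.48. CDC6 (chr17:40287879-40304657), which loads the replicative helicase at origins, was at 71.6 and 67.5 CPM in PD and 19.0 and 19.2 CPM in P+I. It fell by 1.86 on the log2 scale with an adjusted p of 1.77e-11 in edgeR, and its groups lay far apart. CDC45, a subunit of the active helicase, was at 9.90 and 10.6 CPM in PD and 2.53 and 2.30 CPM in P+I (log2 change -2.10). Among the RB, E2F and DP genes, 9 of 19 were lower and 3 higher. MYBL2, a transcription factor of S phase and G2, went from 34.4 and 36.7 CPM in PD to 14.4 and 13.1 CPM in P+I (log2 change -1.38). The RB relative RBL1 (p107) fell by 1.28, whereas the other relative RBL2 (p130) rose by 0.32 and the DP family member TFDP2 by 0.30.

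Homologous recombination and Fanconi anaemia genes, which repair breaks and crosslinks in replicating DNA, were lower in 26 of 38 and higher in 2. FANCI was at 77.8 and 80.3 CPM in PD and 22.3 and 25.7 CPM in P+I (log2 change -1.72), and its partner FANCD2 fell by 1.31. RAD51D (0.57) and SLX4 (0.29) were the higher members. For mitosis and chromosome segregation, 47 of 70 genes were lower and 5 were higher, with a median of -0.39. The kinetochore gene CENPI was at 13.005 and 12.2 CPM in PD and 2.39 and 2.53 CPM in P+I (log2 change -2.35), and CENPU fell by 1.96. Against this direction PTTG1, the gene of securin, was at 30.2 and 28.0 CPM in PD and 47.2 and 47.3 CPM in P+I (log2 change 0.71 ± 0.0596). DLGAP5, a spindle protein, was at 22.4 and 23.2 CPM in PD and 31.8 and 30.5 CPM in P+I (log2 change 0.45). The proliferation marker MKI67 was at 101 and 87.1 CPM in PD and 73.1 and 78.2 CPM in P+I (log2 change -0.31, edgeR adjusted p 0.00568), and without PD replicate 1 it did not pass. LMNB1, the lamin B1 gene whose loss the study used as a sign of senescence, was at 48.6 and 43.1 CPM in PD and 18.4 and 19.97 CPM in P+I (log2 change -1.25).

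**Figure D2:**
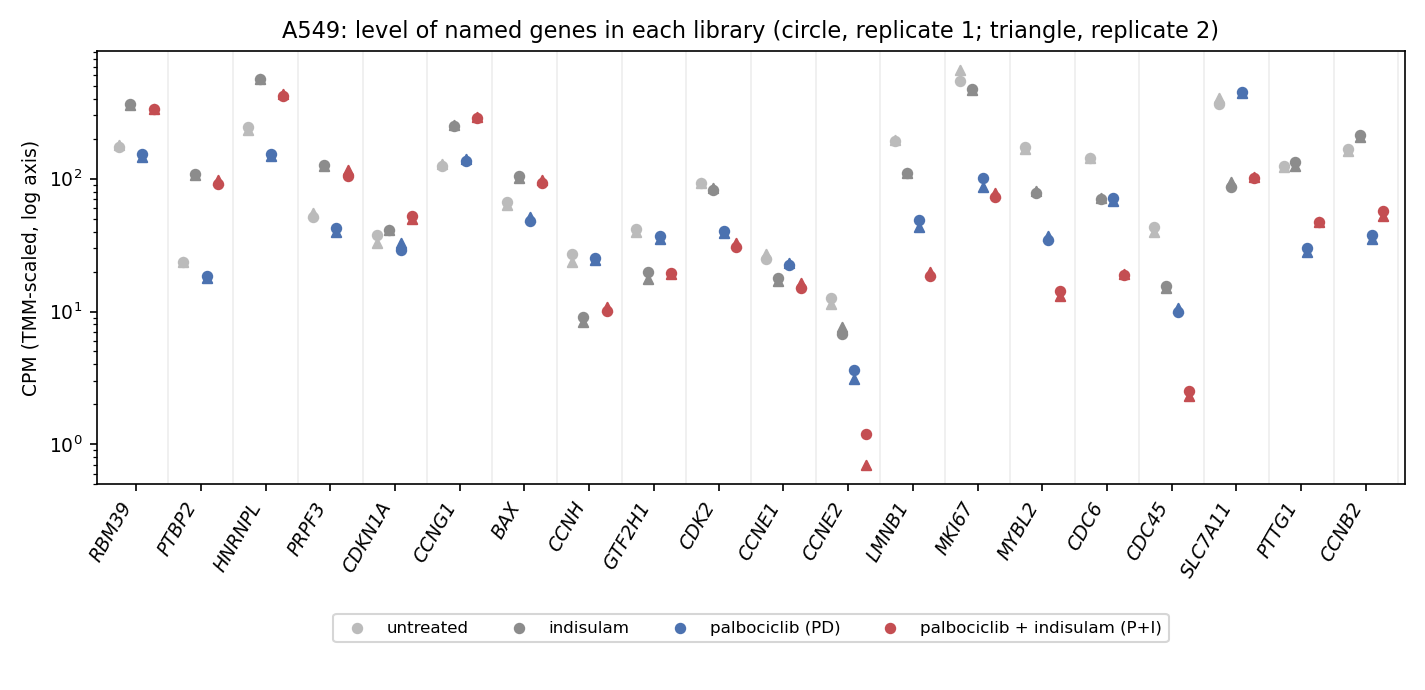
CPM of 20 named genes (log axis) in each of the 8 A549 libraries, with circles for replicate 1, triangles for replicate 2 and colours for treatment. PD (blue) and P+I (red) points do not overlap for any of these genes, and SLC7A11 goes from 453 and 441 CPM in PD to 101 and 103 CPM in P+I.

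Promoters are shown for cell cycle genes that moved down and for mitotic genes that moved up, since both belong to programmes of cycling cells. They are picked examples. Most genes of the mitosis list moved down (47 of 70), and the promoters shown do not represent them. Each line gives the 120 bases before the RefSeq transcription start on GRCh38.p14, 5′ to 3′ on the strand of the gene, with capitals for matches on either strand to short words. Cores of E2F sites were searched as the word TTGGCG, as its variant with other middle bases TTCGCG, as a variant with more cytosines TTCCCG and as a last variant TTGCCG. Cores of the cell cycle homology region (CHR), bound by the MuvB complexes, were searched as the word TTTGAA and as its variant with a CpG, TTCGAA, and the NF-Y box was searched as the word CCAAT. The words were chosen after the values were seen, and a match is a description of letters, not of binding.
CDC6 (chr17:40287759-40287878, plus strand): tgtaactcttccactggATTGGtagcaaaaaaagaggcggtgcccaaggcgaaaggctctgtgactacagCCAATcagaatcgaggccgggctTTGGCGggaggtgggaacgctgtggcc
CDC45 (chr22:19479800-19479919, plus strand): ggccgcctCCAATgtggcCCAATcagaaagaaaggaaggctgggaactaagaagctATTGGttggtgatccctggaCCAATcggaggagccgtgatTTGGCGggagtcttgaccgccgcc
MYBL2 (chr20:43666994-43667113, plus strand): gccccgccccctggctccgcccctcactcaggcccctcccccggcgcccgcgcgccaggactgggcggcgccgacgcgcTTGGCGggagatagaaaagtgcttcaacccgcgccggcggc
CDK1 (chr10:60778211-60778330, plus strand): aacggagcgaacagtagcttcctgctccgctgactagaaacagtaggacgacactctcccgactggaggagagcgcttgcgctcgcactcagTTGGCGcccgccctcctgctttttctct
PTTG1 (chr5:160421735-160421854, plus strand): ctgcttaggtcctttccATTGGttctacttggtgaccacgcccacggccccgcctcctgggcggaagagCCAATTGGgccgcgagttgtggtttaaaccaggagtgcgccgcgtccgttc
CCNB2 (chr15:59105026-59105145, plus strand): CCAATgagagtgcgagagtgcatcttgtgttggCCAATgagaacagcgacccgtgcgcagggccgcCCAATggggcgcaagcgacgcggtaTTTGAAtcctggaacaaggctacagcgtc
DLGAP5 (chr14:55191586-55191705, minus strand): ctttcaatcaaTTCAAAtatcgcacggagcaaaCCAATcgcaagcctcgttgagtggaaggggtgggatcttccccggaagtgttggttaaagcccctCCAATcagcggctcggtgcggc
The E2F word of CDC6 began 27 bases before the start, that of CDC45 24 bases, that of MYBL2 41 bases and that of CDK1 28 bases before it. CCNB2 holds 3 CCAAT boxes and a CHR word, and in PTTG1 a pair of CCAAT boxes on opposite strands share bases. Over the whole 300 bases of the promoter table, from 250 before to 50 after the start, an E2F word was in 78.0% of 50 DNA replication promoters, a CHR word in 6% and CCAAT in 54.0%. For 59 mitosis promoters these shares were 61.0%, 74.6% and 71.2%. Of all 27305 promoters of that length in the table, 31.2% hold an E2F word, 16.6% a CHR word and 35.7% CCAAT. An E2F word was in 48.1% of 3144 promoters of lower genes and in 44.8% of 2640 promoters of higher genes, and at changes of at least 2-fold in 44.3% of 521 lower and 28.8% of 146 higher genes, beside 45.5% of all 10599 tested protein-coding genes with a promoter in the table. Genes with a CHR word were higher in 26.9% and lower in 30.0%, beside 24.7% and 29.6% of genes without it. The printed promoters thus do not stand for a general split by motif.

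In the core spliceosome 39 of 64 tested genes were higher and 6 were lower, with a median of 0.20. Palbociclib alone (PD against UT, which shares the PD libraries) lowered 49 of these 64 genes and raised 1, with a median of -0.35. In that comparison 21.1% of all genes tested were lower. Indisulam alone (IN against UT) raised 31 of the 64 and lowered 9. A rise of P+I over PD is therefore not a rise over untreated cells. PRPF3, a protein of the U4/U6 particle (chr1:150321479-150353233), was at 42.4 and 39.9 CPM in PD and 106 and 117 CPM in P+I (log2 change 1.44 ± 0.0609, edgeR adjusted p 2.57e-10). SF1, the branch point binding protein, went from 252 and 253 CPM in PD to 492 and 477 CPM in P+I (log2 change 0.94). RBM5, a splicing regulator with ties to apoptosis, fell by 0.78 and the helicase gene DHX35 by 0.57. Of 62 SR proteins, hnRNPs and other regulators, 31 were higher and 15 lower. Palbociclib alone lowered 48 of these 62 genes and raised 3.

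The largest increase of a protein-coding gene at this level of expression was a splicing regulator. PTBP2 (chr1:96721665-96823738), the neuronal relative of the polypyrimidine tract binding protein, was at 18.4 and 17.98 CPM in PD and 91.9 and 97.4 CPM in P+I. The rise was 2.38 ± 0.0566 on the log2 scale with an adjusted p of 2.43e-12 in edgeR. HNRNPL, an hnRNP that binds CA-rich RNA, was at 155 and 149 CPM in PD and 416 and 438 CPM in P+I (log2 change 1.49 ± 0.0424). Decreases in this list were led by ESRP1, the epithelial splicing regulator, at 12.96 and 11.4 CPM in PD and 4.37 and 3.84 CPM in P+I (log2 change -1.55). HNRNPAB fell by 0.84. Of 11 kinases of splicing factors, 5 were higher (3 without PD replicate 1) and 2 lower. Within the CLK family CLK4 rose by 0.72 and CLK3 by 0.18, CLK2 fell by 0.55, and CLK1 did not pass (0.07, adjusted p 0.441). SRPK1 fell by 0.38 and SRPK2 rose by 0.20, and the DYRK genes were at 0.35 for DYRK1A, which rose, and at 0.03 for DYRK1B (adjusted p 0.757) and 0.07 for DYRK2 (adjusted p 0.351). HIPK2 rose by 0.37 and PRPF4B did not pass (-0.05, adjusted p 0.440).

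Factors of nonsense-mediated decay, which removes transcripts with early stop codons, were higher in 6 of 19 and lower in 2, with 5 to 10 higher over the alternatives and the most under total-count scaling. Palbociclib alone (PD against UT) lowered 14 of these 19 genes and raised 1. CASC3 of the exon junction complex rose by 0.64 and UPF3B by 0.45, while NBAS fell by 0.32. Small nucleolar RNA host genes, whose spliced transcripts are usual substrates of that pathway, were higher in 15 of 28 and lower in 4 (2 without PD replicate 2). SNHG3 rose by 0.92 and TAF1D by 0.91, SNHG4 fell by 1.08 and SNHG14 by 1.01, and all of these overlap other genes of their own strand, which leaves their counts uncertain. Of 56 replication-dependent histone genes, whose mRNAs mostly lack a poly(A) tail, 17 passed the filter on low counts, with 5 higher (3 without PD replicate 2) and 1, H2AC6 (-0.93), lower. Members that pass such a filter through 1 group only had to differ, so no more is read from the histones.

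**Figure D3:**
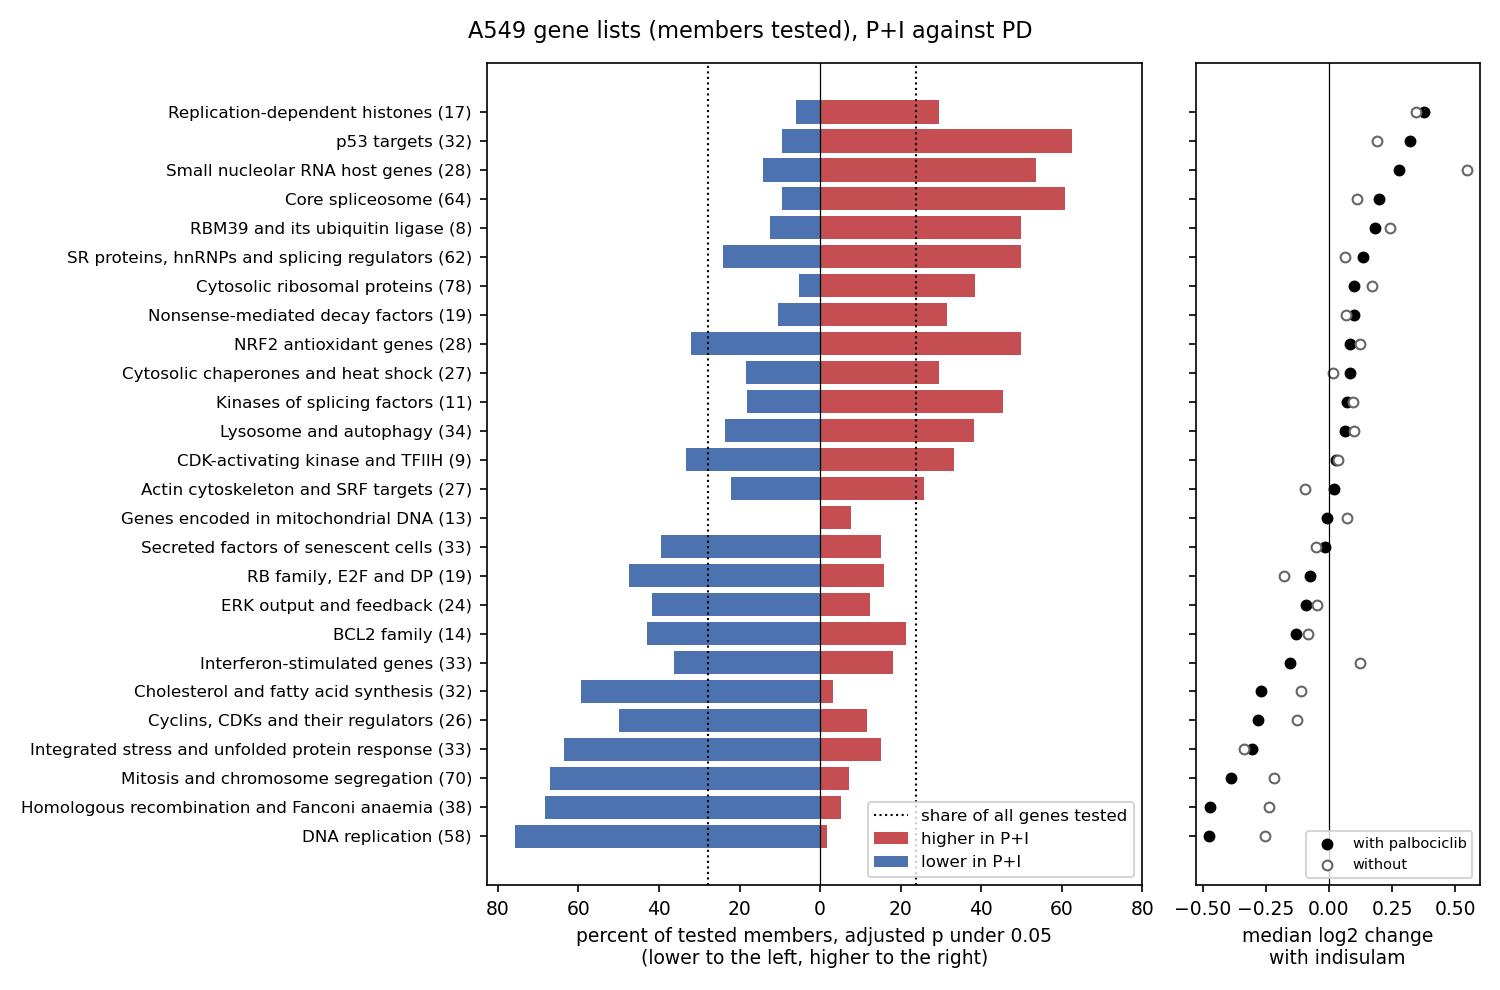
Left, percent of tested members of each gene list higher (right of 0, red) and lower (left of 0, blue) in P+I, with dotted lines at the 23.7% higher and 27.8% lower of all genes tested. Right, median log2 change with indisulam in palbociclib-treated cells (filled circles, P+I against PD) and in cells without palbociclib (open circles, IN against UT), lowest for DNA replication at -0.48 with palbociclib.

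Targets of p53, which is wild type in A549, were higher in 20 of 32 and lower in 3, with a median of 0.32. CCNG1, cyclin G1, was at 136 and 141 CPM in PD and 289 and 293 CPM in P+I (log2 change 1.07 ± 0.0402). EDA2R, a receptor of the tumour necrosis factor family, was at 5.59 and 5.68 CPM in PD and 15.1 and 16.97 CPM in P+I (log2 change 1.504), and XPC, a sensor of DNA damage, fell by 0.77. PMAIP1, the gene of the BH3-only protein NOXA, went from 26.2 and 26.8 CPM in PD to 20.7 and 20.95 CPM in P+I (log2 change -0.35), against the direction of most of the list. Among 14 BCL2 family genes 3 were higher and 6 lower, and the lower count was 2 without PD replicate 2 and 3 without P+I replicate 2. The pore-forming BAX was at 47.7 and 51.2 CPM in PD and 92.7 and 97.2 CPM in P+I (log2 change 0.94) and the BH3-only BBC3 rose by 0.65. BAD (-0.52) and BOK (-0.43) fell and each lost the call when 1 library was left out.

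Of 33 genes of the integrated stress and unfolded protein responses 21 were lower and 5 higher (3 without PD replicate 1). SLC7A11 (chr4:138164097-138242349), the cystine transporter that ATF4 and NRF2 both induce, was at 453 and 441 CPM in PD and 101 and 103 CPM in P+I. Its change of -2.14 ± 0.0549 on the log2 scale, with an adjusted p of 4.09e-12 in edgeR, was among the 10 largest decreases. VLDLR fell by 1.28, and against the direction of the list ATF3 rose by 0.90 and the amino acid transporter gene SLC7A5 by 0.44. NRF2 antioxidant genes split, with 14 of 28 higher and 9 lower. GCLC, the catalytic subunit of glutathione synthesis, rose from 235 and 228 CPM in PD to 370 and 374 CPM in P+I (log2 change 0.68), and ABCC3, an export pump, fell from 972 and 940 CPM in PD to 279 and 317 CPM in P+I (log2 change -1.68). UGT1A6 rose by 1.02, with a count that other members of its locus may share.

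In cholesterol and fatty acid synthesis 19 of 32 genes were lower and 1, NSDHL (0.18), was higher. ACACA, the acetyl-CoA carboxylase that starts fatty acid synthesis, was at 145 and 145 CPM in PD and 65.4 and 65.3 CPM in P+I (log2 change -1.15). The sterol enzyme gene HSD17B7 fell by 0.95. Lysosome and autophagy genes were higher in 13 of 34 and lower in 8, with ULK1, a kinase that starts autophagy (0.58), and UVRAG (0.54) higher and ATG7 (-1.11) and WIPI1 (-1.02) lower. Cytosolic chaperones were higher in 8 of 27 and lower in 5, led by HSPB8 (0.34) and HSPA4 (0.29) upward and FKBP4 (-0.38) and AHSA1 (-0.22) downward.

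Of 33 interferon-stimulated genes 12 were lower and 6 higher, with 9 to 13 and 6 to 9 over the alternatives. IFI35 fell by 1.13 and ISG20 by 0.94, and SAMD9L (0.60) and TRIM21 (0.56) rose. Genes of the ERK pathway and its feedback were lower in 10 of 24 and higher in 3, with HMGA2 (-0.67) and EREG (-0.59) lower and DUSP4 (0.23) and ETV1 (0.18) higher. Actin and SRF target genes were near the background, 7 higher and 6 lower of 27. ANKRD1 rose by 0.69 and CCN1 by 0.44, and TPM1 fell by 0.54 and ACTN1 by 0.49. Cytosolic ribosomal protein genes were higher in 30 of 78 and lower in 4 by small amounts (median 0.10), a count that ran from 16 without PD replicate 1 to 49 without PD replicate 2. RPS15A rose by 0.35 and RPL13A by 0.27, and RPL12 (-0.13) fell, with the call lost in some alternative. Of the 13 genes of mitochondrial DNA, MT-ND6 (0.29) was the called member, while mitochondrial genes made up 7.15% and 5.79% of the gene counts in PD and 6.19% and 7.74% in P+I.

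Secreted factors of senescent cells were lower in 13 of 33 and higher in 5. CXCL5, a neutrophil chemokine, was at 1243 and 1235 CPM in PD and 643 and 642 CPM in P+I (log2 change -0.95). CXCL1 fell by 0.75 and CXCL8 by 0.62, while GDF15 rose by 0.80. The study scored 5 senescence gene sets by ranked enrichment and reported enrichment of the combination over single drugs. That was in other libraries, from a longer treatment at a lower indisulam dose. Here cells had 16 h with 3 µM indisulam and single genes were called, so the counts below do not test that enrichment. Of these 5 sets, Casella had 8 of 37 tested genes higher and 10 lower, Purcell 6 and 9 of 31, Hernandez 6 and 10 of 29, Hernandez SASP 2 and 7 of 19 and Fridman 20 and 15 of 68. Over the alternatives the higher counts ran from 5 to 9 for Casella (5 without P+I replicate 1), 3 to 8 for Purcell, 4 to 8 for Hernandez and 1 to 3 for Hernandez SASP, and the lower count of Fridman from 10 to 16. Their medians lay between -0.01 and 0.04, and each of the 5 medians changed sign under at least 1 alternative. Single members moved strongly within these sets, such as the p53-regulated long RNA PURPL (-1.36) and the peptide-amidating enzyme gene PAM (-1.12) downward and LDAF1, a lipid droplet gene (0.59), upward. MLKL, the effector of necroptosis, fell by 0.63.

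Outside the lists, the largest increases were YY2, a relative of the transcription factor YY1, at 1.96 and 1.97 CPM in PD and 10.1 and 10.0 CPM in P+I (log2 change 2.35), and RRAGB, a Rag GTPase that links amino acids to mTORC1, at 11.95 and 11.1 CPM in PD and 41.1 and 39.4 CPM in P+I (log2 change 1.81). The strand of YY2 also carries MBTPS2, whose span covers it, which leaves the count of YY2 uncertain. OXTR, the oxytocin receptor (1.56), TRIML2 (1.44), ZNF229 (1.34) and TLR1 (1.26) completed the 10 largest increases. The largest decrease by the same rule was in CYP4V2 (chr4:186191567-186213463), a fatty acid hydroxylase, at 20.5 and 18.6 CPM in PD and 2.02 and 1.73 CPM in P+I (log2 change -3.37 ± 0.134, edgeR adjusted p 1.55e-10). SFXN2, a mitochondrial transporter, was at 15.2 and 13.8 CPM in PD and 1.84 and 1.88 CPM in P+I (log2 change -2.95). RBM14, a coactivator that also binds RNA, was at 52.3 and 53.9 CPM in PD and 10.9 and 9.94 CPM in P+I (log2 change -2.35), and it overlaps the RBM14-RBM4 readthrough gene. DNHD1 (-2.55), DCDC1 (-2.38), the mitochondrial peptidase MIPEP (-2.23), the clock gene BMAL2 (-2.19) and the adhesion gene CADM2 (-2.13) followed. Of other biotypes, SDHAP4 (1.41) and HTR7P1 (1.31) rose, and CCDC18-AS1 (-2.77), ZBED5-AS1 (-2.34) and FAM86JP (-2.34) fell. Pseudogenes share reads with their parent genes, and both antisense genes overlap a gene on the other strand, so these values are uncertain.

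Structure of the gene was examined because indisulam acts on splicing, although counts per gene hold no exon or junction values. Among protein-coding genes at 5 CPM or more, 29.4% of 163 genes with 1 exon were higher and 7.36% lower. With over 20 exons, 21.5% of 1532 genes were higher and 44.6% lower. The classes between them lay between these shares for the lower genes, as the plot by exon number shows. Medians went from 0.08 in the first class to -0.12 in the last. For indisulam alone (IN against UT) they went from 0.10 to -0.12. The lower genes of IN against UT went from 7.36% to 44.1%. For palbociclib alone (PD against UT, which shares the PD libraries) the medians also fell, by less, from 0.04 to -0.05. Shares of called genes by exon number are not given for palbociclib alone, and the cause of these falls was not tested. The Spearman correlation of the log2 change with the log2 number of exons was -0.155 across 13085 protein-coding genes and that with the log2 genomic span was -0.0388, given as descriptions across genes that share libraries and differ in level. Median CPM also rose with exon number, from 19.7 to 50.4, and its part in these shares was not tested.

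**Figure D4:**
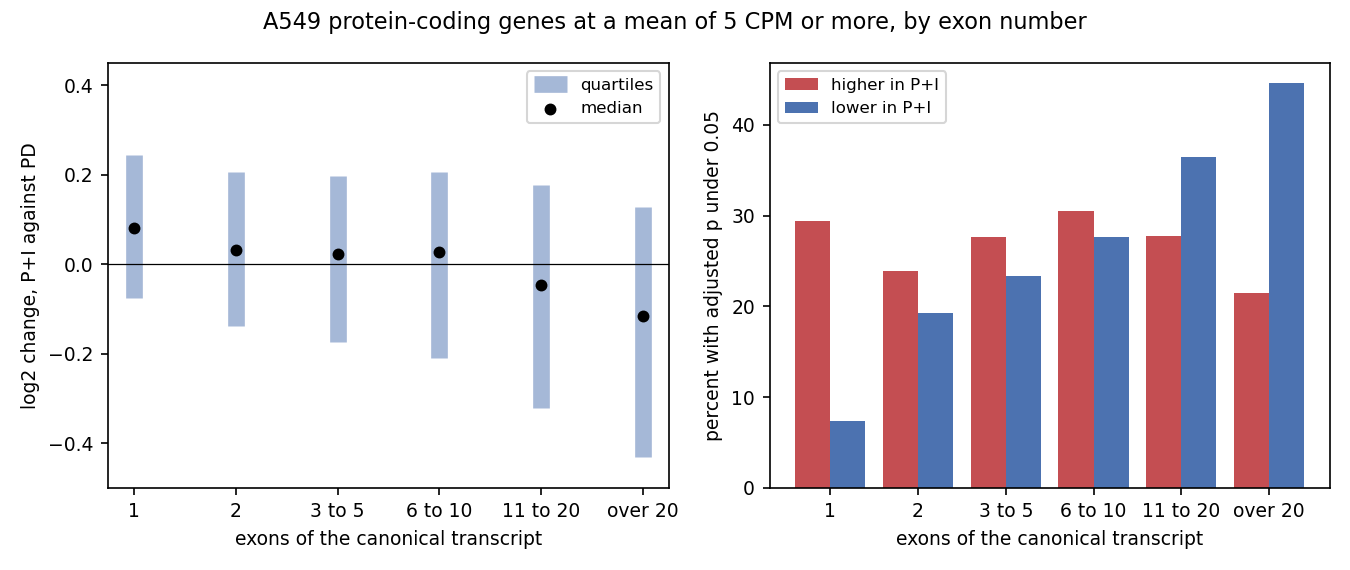
Protein-coding A549 genes at a mean of 5 CPM or more in classes by the number of exons of the canonical transcript. Left, median (point) and quartiles (bar) of the log2 change of P+I against PD, and right, percent of each class higher (red) or lower (blue) in P+I at an adjusted p of 0.05, with lower genes going from 7.36% at 1 exon to 44.6% over 20 exons.

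Indisulam in palbociclib-treated cells was then set beside indisulam alone, a comparison with which it shares no library. Of the genes higher in P+I against PD, 69.4% were also higher in IN against UT, where 23.3% of all genes tested were higher, and of the lower genes 73.5% were also lower there, where 25.9% were lower. Opposite calls were made for 31 and 27 genes. The Spearman correlation of the log2 changes across 10755 genes at 5 CPM or more was 0.844, a description over genes measured in the same 8 libraries. PTBP2 (2.38 with and 2.19 without palbociclib), SLC7A11 (-2.14 and -2.09) and CCNH (-1.24 and -1.54) had no difference called.

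**Figure D5:**
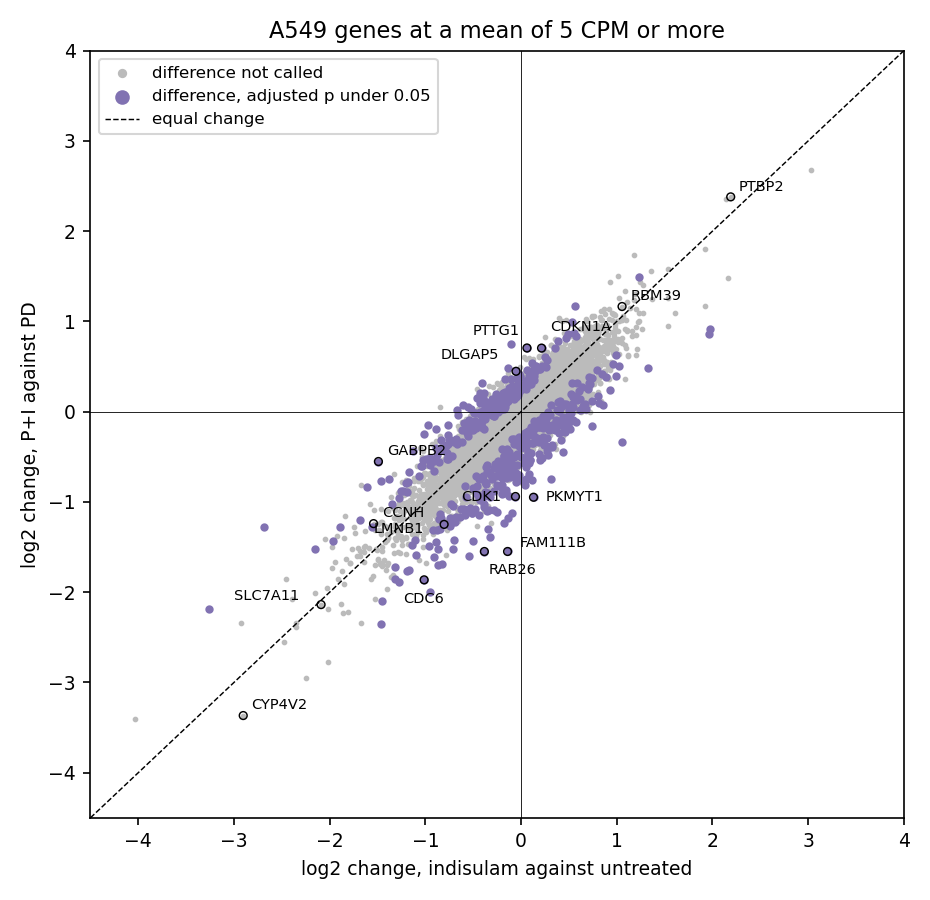
Log2 change with indisulam in palbociclib-treated A549 cells (vertical axis, P+I against PD) against that in cells without palbociclib (horizontal axis, IN against UT), 1 point for each of 10755 genes at a mean of 5 CPM or more. Purple points passed an adjusted p of 0.05 for the difference, the dashed line marks equal change, and FAM111B, RAB26, PKMYT1 and CDK1 lie below it, with IN against UT changes of -0.14, -0.38, 0.13 and -0.06.

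The test of the difference itself, P+I minus PD minus the change from UT to IN, called 3.53% of genes, 234 (1.49%) with a higher and 322 (2.05%) with a lower change on palbociclib, and 31 of these were at least 2-fold. This count was unstable, running from 52 without IN replicate 2 to 976 without P+I replicate 1. Genes named here as holding are therefore those called in every alternative tried, leaving aside the minimum log2 difference of 1. FAM111B, a protease gene of replicating cells, was at 51.1 and 55.5 CPM in UT and 49.2 and 47.5 CPM in IN, but at 11.3 and 11.5 CPM in PD and 3.73 and 4.08 CPM in P+I. Its change with indisulam was thus -0.14 without and -1.55 with palbociclib (difference -1.41, adjusted p 9.49e-05). CDK1 was at 174 and 174 CPM in UT and 164 and 171 CPM in IN, a change of -0.06 beside -0.94 on palbociclib (difference -0.88, adjusted p 9.08e-05). PKMYT1 had 0.13 without and -0.95 with palbociclib, and RAB26, a Rab GTPase of secretory vesicles, had -0.38 and -1.55. CDC6 fell in both settings, by 1.01 without and by 1.86 with palbociclib (difference -0.85, adjusted p 9.49e-05). PTTG1 (0.06 without and 0.71 with palbociclib) and DLGAP5 (-0.05 and 0.45) had the opposite difference, and were at 126 and 122 CPM and at 135 and 131 CPM in UT.

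By list, 17 of 58 DNA replication genes had a more negative change on palbociclib, beside 2.05% of all genes tested, with counts of 8 to 19 over the alternatives. The count was 8 without IN replicate 2, 9 without IN replicate 1, 10 without either UT replicate and 11 without PD replicate 2. Mitosis genes had 14 of 70 more negative (3 to 15 over the alternatives) and 5 more positive (3 to 6). The recombination list had 9 of 38 more negative (1 to 9) and the cholesterol and fatty acid list 10 of 32 (0 to 13). Without IN replicate 2 the more negative counts of these 3 lists were 3, 1 and 0, without IN replicate 1 they were 7, 1 and 0, and without PD replicate 2 they were 7, 1 and 4. They were 6, 2 and 3 without UT replicate 1, 8, 4 and 2 without UT replicate 2, and the recombination count was 3 without PD replicate 1 and 4 without P+I replicate 1. Core spliceosome and SR and hnRNP genes had 4 of 64 and 7 of 62 more positive differences, beside 1.49% of all genes tested. Ranges over the alternatives are not given for either list, so these counts are not to be taken as firm. Over all genes the more positive differences fell from 234 to 20 without IN replicate 1 and to 11 without IN replicate 2. Palbociclib alone had lowered all 70 mitosis genes and 55 of the 58 replication genes (PD against UT, in which 21.1% of all genes tested were lower and which shares the PD libraries with P+I against PD), so PD levels lay below UT levels for most of these genes. CDKN1A went from 37.6 and 32.7 CPM in UT to 40.8 and 40.9 CPM in IN, and its difference of 0.49 (adjusted p 0.0210) was called in 11 of 15 alternatives. That of LMNB1 (-0.45, adjusted p 0.0134) was likewise called in 11 of 15.

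In SUM159 the same addition of indisulam to palbociclib gave 54.1% of the A549-higher genes higher and 61.7% of the A549-lower genes lower, among the 14122 genes tested in both lines. Of the wider set of all 16080 genes tested in SUM159, 23.4% and 24.9% were called in these directions. The test of the difference between lines called 20.7% of 17764 genes. RBM39 rose alike in size, with 1.05 in SUM159 and a difference that did not pass (-0.14, adjusted p 0.0624), and the CCNH change of -1.15 in SUM159 differed by 0.06 (adjusted p 0.802). The splicing genes that led the increases in A549, and were chosen for that, changed less in SUM159. PRPF3 was at 67.6 and 67.3 CPM in SUM159 PD and 73.9 and 72.3 CPM in SUM159 P+I (difference SUM159 minus A549 -1.35, adjusted p 3.00e-11). PTBP2 (-1.32) and HNRNPL (-0.95) had differences of the same sign. CDC6 fell by 0.97 in SUM159, less than in A549 (difference 0.86, adjusted p 1.45e-08). CDKN1A went from 32.8 and 33.7 CPM in SUM159 PD to 26.2 and 27.1 CPM in SUM159 P+I, a change of -0.32 beside 0.71 in A549 (difference -1.05, adjusted p 2.17e-08). Of the 32 p53 targets 19 had a lower change in SUM159 than in A549 and 1 a higher one, beside 10.8% and 9.91% of all genes tested.

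Reads in no annotated feature, which poly(A) libraries gather from introns and unannotated transcripts, were 4.71% and 4.17% of all reads in PD and 4.83% and 5.66% in P+I. Both P+I libraries lay above both PD libraries on 19 of 23 chromosomes. The chromosomes are parts of the same 4 libraries, so they are not separate evidence. The nearest PD and P+I libraries, at 4.71% and 4.83%, were closer to each other than the libraries of either pair. The part of these reads in the changes of gene counts was not tested.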

How the data were processed

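The authors deposited 1 file per library with raw counts of reads per Ensembl gene, not normalized and with replicates not pooled. Per the study's methods, strand-specific poly(A) libraries were read as 75 bp pairs on a NextSeq550 and trimmed with SeqPurge. The submitters' processing notes name HISAT2 2.2.1, HTSeq and GRCh38. The strand setting and annotation release of the counting are not given in the sources used here. Of 58676 identifiers, 58207 were matched to GENCODE 44, which supplied symbols, coordinates and exon numbers. Of the 167 genes named, 69 overlap an annotated gene on the same strand and 89 one on the other strand, so their counts are less certain. Gene counts do not resolve isoforms.

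Groups came from the labels. The 8 A549 libraries were fitted together with edgeR 4.0.16 in R 4.3.3 (1 coefficient per group, filterByExpr, TMM scaling, quasi-likelihood test, Benjamini-Hochberg adjustment over all 15744 genes, threshold 0.05). Each SE is the change divided by the root of its F statistic. The difference with and without palbociclib was a contrast of that fit, and the difference between lines came from a fit of all 16 libraries (17764 genes). Rows of reads in no feature, ambiguous or not unique stayed out of library sizes and tests, and those in no feature held 4.17% to 5.66% of reads in the 4 libraries. Gene counts of 20745038 to 34075588 per library set the floor of 3 counts, and floors and shares cover the error of counting alone, because reads copied by PCR are not separate molecules.

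Named genes were 10 genes the study follows, the 10 largest protein-coding increases and decreases at 5 CPM or more with groups apart, the 3 largest of other biotypes, the 2 largest each way in every list (all members of lists of up to 12), and the 5 largest each way for each difference. Some genes that the rule takes are not reported here. The members and lists were chosen with earlier results of these data known, so p-values were not adjusted over lists and no set test was run. Scripts were tested on simulated data. Alternatives were another scaling (total counts, DESeq2 size factors), DESeq2 1.42.0, other filters, a replicate block and each library left out. Counts at a minimum log2 change of 1 are given apart and are not among the alternatives used for single genes and lists. A crossed block and a thinned PD replicate 2 were added after the data were seen. Promoters came from RefSeq on GRCh38.p14, matched by symbol for 10599 of 13085 protein-coding genes, and motif words were sought on both strands with Python 3.11.15. Figures were drawn with matplotlib 3.10.9.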

Additional observations from a re-analysis of the deposited data

Results flagged for a closer look

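The change with indisulam differed with and without palbociclib in A549, by the test of the difference in edgeR, for the following named genes. More negative on palbociclib were FAM111B (-1.41), CCDC78 (-1.39), RAB26 (-1.17), AMH (-1.10), PKMYT1 (-1.08) and LMNB1 (-0.445), all as differences of log2 changes. More positive were GABPB2 (0.939), POMK (0.860), the carboxypeptidase M gene CPM (0.827), ELOVL2 (0.779), ERMAP (0.766) and CDKN1A (0.490). AMH, the anti-Müllerian hormone gene, rose in both settings, with 4.91 and 5.07 CPM in UT, 17.5 and 21.5 CPM in IN, 4.88 and 3.83 CPM in PD and 8.003 and 7.45 CPM in P+I. GABPB2, a subunit of the GABP transcription factor, fell in both, and less on palbociclib (-0.55 beside -1.49). FAM111B, RAB26, PKMYT1 and CCDC78 were called in every alternative that tested them and GABPB2 in 14 of 15. POMK, CPM, ERMAP, AMH, CDKN1A and LMNB1 were called in 11 of 15 and ELOVL2 in 6 of 15.

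The change of P+I against PD differed between SUM159 and A549, by the test of the difference in a fit of all 16 libraries. Values are SUM159 minus A549 on the log2 scale. Genes followed by the study with such a difference were CDKN1A (-1.05), CDK7 (-0.274) and LMNB1 (0.749). The largest positive differences were ANO1 (5.75), KCNJ2 (4.88), DCDC1 (4.30), ELF3 (3.42) and MUC5AC (3.16), and the largest negative ones TMCC3 (-4.51), NTRK3 (-4.33), PCDH15 (-4.28), ZFHX4 (-2.10) and NR5A2 (-2.05). Most of these genes were close to 0 counts in SUM159, for example 0 and 0 counts of ANO1 in PD and 3 and 3 counts in P+I, so these fitted values depend on the prior count and give no bound. ANO1, DCDC1 and ZFHX4 were called in 13 of 13 alternatives and MUC5AC in 14 of 14. KCNJ2 was called in 12 of 13, ELF3 in 11, TMCC3 in 10, NTRK3 and NR5A2 in 9 and PCDH15 in 8. CDKN1A and LMNB1 were called in 14 of 14 and CDK7 in 13 of 14. MUC5AC, a secreted mucin, had 10 and 25 counts in SUM159 PD and 133 and 59 counts in SUM159 P+I, while in A549 it went from 551 and 471 CPM in PD to 282 and 350 CPM in P+I. ZFHX4 had 56 and 90 counts in SUM159 PD and 26 and 23 counts in SUM159 P+I, and rose in A549 by 0.56.

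Reads in no annotated feature, which no comparison of genes uses, made up 4.832% and 5.664% of the reads of the P+I libraries, above 4.710% and 4.172% in the PD libraries.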

How the results depend on the processing

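The count of genes changed between P+I and PD, 8108, was 8154 with total-count scaling, 8197 with DESeq2 size factors in edgeR, 7980 with the replicate block, 5911 with the DESeq2 Wald test, 8340 with no filter on low counts, 7482 with at least 10 counts in every library, 7396 with only the 4 libraries and 7924 with PD replicate 2 thinned to the depth of PD replicate 1. No call of the 8108 changed sign with total-count scaling, DESeq2, the block or 1 library left out. A minimum log2 change of 1 left 1409 (444 higher, 965 lower), and leaving out 1 library gave 6375 to 7520 (2863 to 3582 higher, 3512 to 3957 lower). The numbers were not taken to pair the samples, because the labels do not say what a shared number marks and the duplicates are called technical. The same-numbered PD and P+I libraries deviated with a correlation of -0.113, and a block with crossed numbers gave 7941.

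The count of genes whose change differed with palbociclib, 556 (234 higher, 322 lower), depended most on the processing. It was 998 with no filter (422 and 576), 343 with DESeq2 (158 lower), 470 with the replicate block and 31 with a minimum log2 difference of 1 (7 and 24). The share with a higher change was 42.1%, but 54.7% with DESeq2 size factors and 53.9% with DESeq2. Without UT replicate 1 it was 123, UT replicate 2 156, PD replicate 1 377, PD replicate 2 148, IN replicate 1 87, IN replicate 2 52, P+I replicate 1 976 and P+I replicate 2 898 (11 to 532 higher, 41 to 444 lower). The cause was not tested. The count that differed between lines, 3681, was 3444 with the replicate block, 2551 with DESeq2, 417 with a minimum of 1 (319 and 98) and 2491 to 3563 without 1 library (1175 to 1931 higher, 1294 to 1908 lower). Its share higher in SUM159 was 47.8%, but 61.5% with total counts and 57.4% with no filter.

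Of the 155 named genes called, 17 lost the call under some alternative, each when 1 library was left out, and 15 of these had log2 changes under 0.5 in size. The medians of the lists for DNA replication (-0.504 to -0.448), mitosis (-0.410 to -0.338), the core spliceosome (0.189 to 0.242) and p53 targets (0.284 to 0.351) kept their sign in 12 alternatives. The list of TFIIH (-0.0123 to 0.0585), secreted factors (-0.133 to 0.0182) and mitochondrial genes (-0.149 to 0.183) did not. Depth limits genes near the floor of 0.145 CPM or less.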
